A study of Rattus norvegicus with 16 samples.

Results

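The 40 genes described here encode proteins of the lysosome and of autophagy, the 2 linked routes by which a cell breaks down its own parts and what it takes in. They were taken by function as a list of gene symbols, with earlier results of these data known, from the 31038 genes of the tables. The list holds 20 hydrolases (8 proteases and 12 enzymes that cut glycans or lipids), 2 soluble cofactors, 6 membrane proteins, 11 autophagy genes and the transcription factor Tfeb. RNA of the rat sciatic nerve was sequenced in 16 libraries, 2 from each of 8 groups, which were Schwann cells or whole nerve that was uncrushed or was collected 3, 5 or 7 days after crush. The left nerve was crushed at mid-thigh at postnatal day 18, and the nerve distal to the crush was taken, or the matching segment of an uncrushed nerve. Every sample carries the label of postnatal day 18, the age at which nerves were crushed, and pooled at least 10 nerves. The age at collection is not stated, so that time after crush cannot be told apart from it. Uncrushed nerves had no sham operation. No strain or genotype is given in the labels. Schwann cells, the glia of the peripheral nerve, were purified by immunopanning. The nerves were digested with collagenase and dispase, cells bound by antibodies to CD45 and Thy1 were removed, and cells bound by the antibody O4 were kept. Whole nerve holds all cells of the tissue. In bulk samples such as these, fewer cells of a type and less RNA per cell cannot be told apart.

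Lysosomes are acidic organelles in which hydrolases digest proteins, lipids and glycans. Membrane proteins keep the organelle intact and carry the products out, and autophagy delivers the cell's own material to it inside a double membrane. In an injured nerve the myelin sheaths distal to the lesion break up. Schwann cells, through autophagy of their own myelin and through engulfment, and macrophages, through engulfment, are known to clear them. Tfeb and its relatives bind a palindromic sequence, the CLEAR motif, in front of many lysosomal genes.

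Upstream sequences are shown for 4 members, because Ctsd, Lamp1 and Galc hold that motif while Lipa, the member with the highest fold change after crush, has none in the same window. Each is the 250 bases before the transcript start, 5′ to 3′ on the strand of the gene, from RefSeq promoters of the assembly GRCr8, which is not the build of the counts. Capitals mark the 8-base core of the CLEAR motif, TCACGTGA, or, where only 6 bases match, the E-box CACGTG. Both are palindromes and so read the same on both strands, and every CLEAR core contains an E-box. Ctsd, on the minus strand at chr1:206968822-206969071, Lamp1, on the minus strand at chr16:83075064-83075313, Galc, on the minus strand at chr6:123245560-123245809, and Lipa, on the minus strand at chr1:241470741-241470990, read as follows.
Ctsd: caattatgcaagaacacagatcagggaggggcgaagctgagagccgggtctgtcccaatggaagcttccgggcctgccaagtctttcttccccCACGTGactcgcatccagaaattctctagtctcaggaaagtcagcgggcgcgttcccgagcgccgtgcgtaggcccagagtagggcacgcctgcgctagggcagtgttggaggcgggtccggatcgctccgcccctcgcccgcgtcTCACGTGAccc
Lamp1: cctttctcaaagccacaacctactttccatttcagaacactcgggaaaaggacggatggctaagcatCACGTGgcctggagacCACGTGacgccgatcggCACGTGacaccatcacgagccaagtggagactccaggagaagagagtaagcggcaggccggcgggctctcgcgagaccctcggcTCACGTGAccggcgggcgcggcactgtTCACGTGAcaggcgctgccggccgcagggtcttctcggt
Galc: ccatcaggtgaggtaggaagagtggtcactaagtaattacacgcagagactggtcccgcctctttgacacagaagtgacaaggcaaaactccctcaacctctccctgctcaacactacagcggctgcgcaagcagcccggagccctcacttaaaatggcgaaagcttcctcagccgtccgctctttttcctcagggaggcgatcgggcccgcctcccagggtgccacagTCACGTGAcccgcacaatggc
Lipa: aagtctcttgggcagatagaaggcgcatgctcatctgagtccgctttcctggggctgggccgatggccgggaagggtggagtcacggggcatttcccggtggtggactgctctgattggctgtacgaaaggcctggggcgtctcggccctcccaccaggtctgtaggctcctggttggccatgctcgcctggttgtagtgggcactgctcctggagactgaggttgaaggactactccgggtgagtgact

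A window of 300 bases, 250 before and 50 after the start, was found for 33 of the 40 members. Ctsb, Hexa, Arsa, Asah1, Psap, Becn1 and Map1lc3a had none. The CLEAR core lay in 5 of the 33 windows (15.2%), those of Ctsd, Galc, Lamp1, Cln3 and Mcoln1, and in 0.777% of all 33469 windows. It was present in 3 of 6 windows of membrane proteins, 2 of 16 of hydrolases and 0 of 9 of autophagy genes. In lists of other genes of the pathway it was in 0 of 16 windows of lysosomal membrane proteins, 0 of 17 of hydrolases, 2 of 31 of autophagy genes and 2 of 12 of proton pump subunits. Lamp1 held it in 2 places, with the E-box inside it beginning 65 and 38 bases before the start. The E-box lay in 9 of the 33 windows (27.3%) and in 6.42% of all windows, with Glb1, Gaa, Sgsh and Atg5 holding an E-box without the CLEAR core. A match is a run of letters and not a measured binding site, and these data hold no measure of binding.

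The libraries held between 10555067 and 27562637 expected counts, of which the 40 members took 0.306 to 0.630%, and all 40 were tested in every comparison. Sox10, 1 of 7 Schwann cell markers, had levels of 57.0 to 89.6 in the purified cells and of 26.3 to 50.7 in whole nerve. The sum of the 7 went the other way in uncrushed nerve, with 7293 and 7588 in purified cells and 15389 and 19141 in whole nerve. On day 3 it was 4024 and 3798 in purified cells and 2208 and 2050 in whole nerve. Macrophage markers were low in the purified cells, with 1 library that stood apart. The summed level of 12 macrophage markers was 8.77 to 23.3 in 7 of the 8 Schwann cell libraries, 72.8 in replicate 2 of day 3, 559 and 591 in uncrushed whole nerve, and 1399 to 2747 in crushed whole nerve. Replicate 2 of day 3 also held more endothelial RNA, 3.41 against 0.564 in replicate 1, summed over 4 markers. None of the 40 members is on the macrophage list. Fibroblast markers summed to 229 to 555 in Schwann cells and to 4518 to 5858 in whole nerve, and 3 pericyte markers to 45.2 and 34.4 in the uncrushed Schwann cell libraries and 6.69 to 16.2 in the crushed ones, where of the 3 only Pdgfrb was called lower on each day and Rgs5 and Acta2 were not called. Levels here and below are FPKM, which is scaled to gene length and library size by the authors, divided by the scaling factor of each library, so that genes and libraries share a scale. Differences are log2 fold changes with standard errors from the quasi-likelihood test of edgeR, and a gene is called where its p, adjusted over all genes tested, is under 0.05.

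After crush, most hydrolases and both cofactors rose in Schwann cells, while autophagy genes went in both directions or were not called. The summed level of the 20 hydrolases was 642.1 and 693.7 in uncrushed Schwann cells and 1476 and 1549 on day 3, 2.26 times the uncrushed mean. It was 1122 and 1192 on day 5 and 929.7 and 896 on day 7. The cofactors Psap and Npc2 together rose from 173 and 162.3 to 573.3 and 617 on day 3, a ratio of 3.55 that was still 3.43 on day 5. The 6 membrane proteins had 1.5 times and the 11 autophagy genes 1.21 times their uncrushed sum on day 3. In none of these 4 classes did the sums of the crushed Schwann cell libraries of any day overlap with the uncrushed ones. Most of the membrane protein sum came from Lamp1 and Lamp2. The median level of the 6, averaged over the 2 libraries, was 27.07 uncrushed, 27.95 on day 3, 24.96 on day 5 and 23.29 on day 7. In whole nerve the ratios of the sums on day 3 were 1.92 for hydrolases, 1.83 for cofactors, 1.25 for membrane proteins and 0.893 for autophagy genes.

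**Figure D1:**
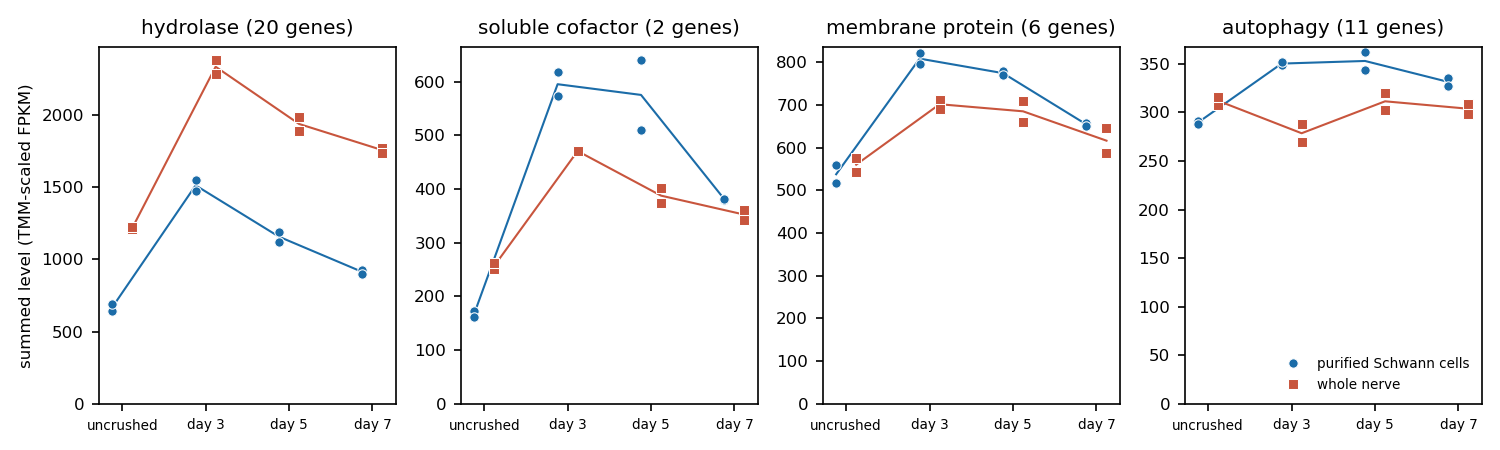
Summed level of each class of members (TMM-scaled FPKM, linear axis from 0) in uncrushed nerve and 3, 5 and 7 days after crush, for Schwann cells and whole nerve, with 1 point per library. Hydrolases in Schwann cells lay at 642.1 and 693.7 when uncrushed and at 1476 and 1549 on day 3, whereas the autophagy sum stayed between 287.9 and 362.5 in all 8 Schwann cell libraries.

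Counted gene by gene, 24 of the 40 members were called higher and 2 lower on day 3 in Schwann cells, beside 26.9% and 25.7% of all 14961 genes tested. On day 5, 20 were higher and 5 lower, beside 29% and 25.6% of all genes. On day 7, 19 were higher and 4 lower, beside 25% and 21.9%. Of the hydrolases, 15 of 20 were higher on day 3, 12 on day 5 and 12 on day 7, and 1, 3 and 1 were lower. Of the membrane proteins, 3 of 6 were higher on day 3 and 2 on each later day, and of the autophagy genes, 4, 4 and 3 of 11 were higher. The median log2 fold change on day 3 was 0.74 for hydrolases, 0.44 for membrane proteins and 0.12 for autophagy genes, beside 0.0034 for all genes tested. On day 7 it was 0.58, 0.35 and 0.30, beside 0.061 for all genes. The 3 days share their uncrushed libraries and are not independent of each other. All crushed libraries lay above both uncrushed ones for 24 members and below both for 5 in Schwann cells, beside 3882 and 2866 of the 11938 genes with a mean FPKM of at least 1.

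The calls differed in how firm they were. Of the 24 members higher on day 3, 15 stayed called higher in all 10 alternatives to the test, its scaling, its filter and its libraries, namely Ctsa, Ctsb, Ctsd, Ctsz, Lipa, Glb1, Gusb, Gaa, Galc, Psap, Npc2, Lamp1, Lamp2, Map1lc3b and Sqstm1. Ctss, Tpp1, Hexa, Gla, Asah1, Smpd1, Npc1, Atg5 and Wipi1 lost the call in at least 1 of them. Both lower members, Sgsh and Atg16l1, stayed called on day 3. On day 5, 14 of 20 higher members and, of the lower ones, Ctsl and Atg16l1 stayed called, and on day 7 14 of 19 did, with Ctsl, Atg16l1 and Gabarapl1 among the lower ones. Without replicate 2 of day 3, the library with macrophage RNA, 17 members were higher and 2 lower on day 3. Without replicate 1 of uncrushed Schwann cells, 4 were lower on day 3, 2 hydrolases and 2 autophagy genes. Without that library, or without either library of day 5, 3 members and 1 hydrolase were lower on day 5.

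**Figure D2:**
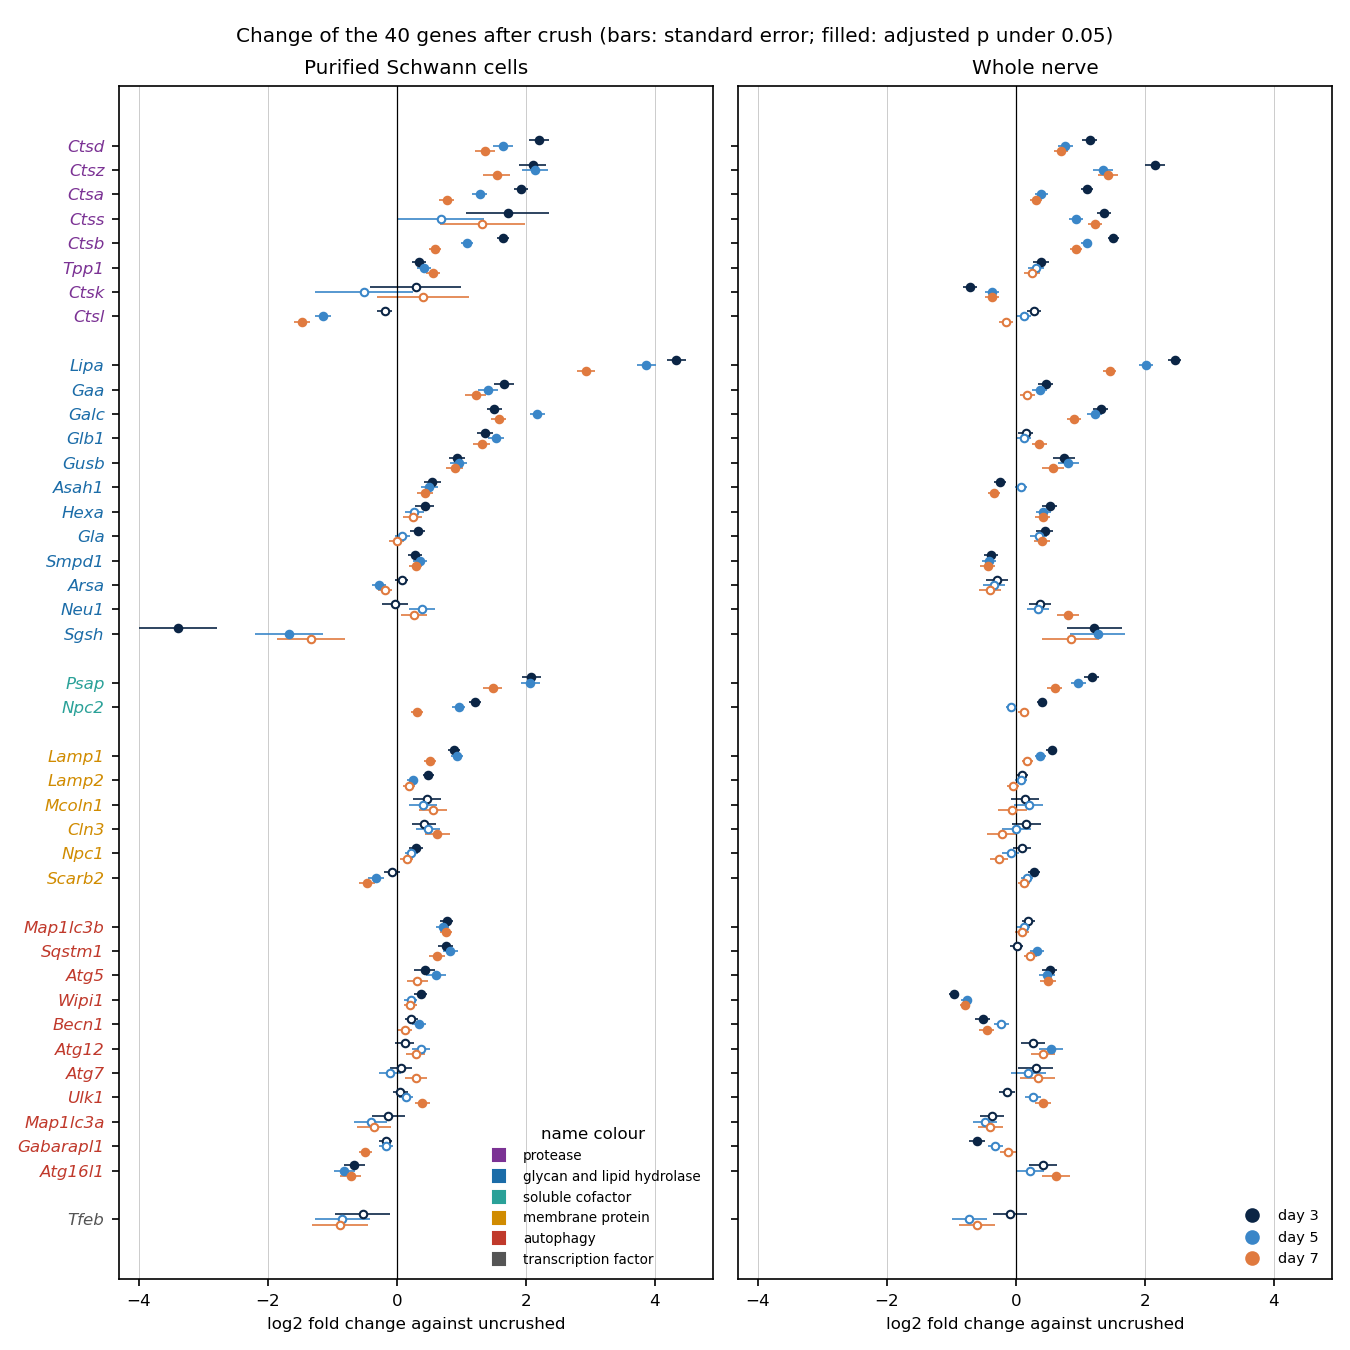
Log2 fold change against uncrushed nerve of the 40 members, grouped by class, at 3, 5 and 7 days after crush in Schwann cells and in whole nerve, with error bars of 1 standard error and filled points for adjusted p under 0.05. Lipa reached 4.33 in Schwann cells and 2.46 in whole nerve on day 3, and Wipi1 was at 0.37 in the former and at -0.96 in the latter.

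Among the proteases, Ctsd had the highest fold change in Schwann cells on day 3, and Ctsz on days 5 and 7. Ctsd, the aspartic protease cathepsin D, had levels of 44.0 and 47.3 in uncrushed Schwann cells, 199 and 214 on day 3, 119 and 163 on day 5 and 127 and 106 on day 7. All 6 crushed libraries lay above both uncrushed ones, and the log2 fold change on day 3 was 2.21 ± 0.15 (edgeR quasi-likelihood, adjusted p = 2.381e-06). Ctsb, the cysteine protease cathepsin B, was the protease with the highest mean level over the 16 libraries, although Ctsl had the higher mean in both uncrushed groups. Ctsb had levels of 132 and 129 uncrushed, 398 and 406 on day 3, 269.9 and 280.0 on day 5, and 185 and 203 on day 7, and so rose by 1.65 ± 0.10 on day 3, by 1.09 ± 0.09 on day 5 and by 0.59 ± 0.09 on day 7 on the log2 scale (edgeR, adjusted p = 6.984e-07, 1.083e-05 and 0.0006964). Ctsa, the carboxypeptidase cathepsin A, which also protects Glb1 and Neu1 in a complex, rose from 65.3 and 71.5 to 233 and 276 on day 3 (1.93 ± 0.11, edgeR, adjusted p = 7.536e-07), and lay at 115 and 116 on day 7. Ctsz, a carboxypeptidase, rose from 3.43 and 4.43 to 17.2 and 15.8 on day 3 and was still at 10.6 and 12.1 on day 7. Tpp1, which removes tripeptides from the end of proteins, moved less, from 38.5 and 33.7 to 53.5 and 51.9 on day 7.

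Cathepsin L went the other way. Ctsl, a cysteine protease like cathepsin B, had levels of 126 and 158 in uncrushed Schwann cells, 123 and 123 on day 3, 64.3 and 64.1 on day 5, and 52.8 and 49.1 on day 7. It was not called on day 3 and fell by 1.14 and 1.47 on the log2 scale on days 5 and 7 (SE 0.12 for each, edgeR, adjusted p = 3.977e-05 and 1.167e-05). In whole nerve its levels were 322 and 306 uncrushed and 292 to 411 after crush, so that the groups overlapped. Ctss, cathepsin S, and Ctsk, the collagen-cutting cathepsin K, were barely present in Schwann cells, with levels of 0.491 to 3.59 and 0.188 to 0.873. In whole nerve Ctss had levels of 71.7 and 76.5 uncrushed and 149 to 205 after crush. Ctss in Schwann cells was called on day 3 (1.72 ± 0.64, edgeR, adjusted p = 0.04627), with levels of 1.17 and 3.59 in the day 3 libraries, and on neither later day (0.68 ± 0.68 and 1.32 ± 0.66, adjusted p = 0.415 and 0.127). The higher of these was the library with the most macrophage RNA, and without it the log2 fold change was 0.66 (adjusted p = 0.4846).

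Among the enzymes that cut glycans and lipids, Lipa had the highest fold change of all 40 members. Lipa is the acid lipase that frees cholesterol and fatty acids from the esters that reach the lysosome. Its levels in Schwann cells were 6.22 and 5.49 uncrushed, 111 and 120.1 on day 3, 83.3 and 85.2 on day 5, and 38.7 and 49.6 on day 7. The 6 crushed libraries lay far above both uncrushed ones, at 20.2, 14.6 and 7.63 times on the 3 days by the fit. The log2 fold changes were 4.33 ± 0.15, 3.87 ± 0.15 and 2.93 ± 0.14 (edgeR, adjusted p = 5.462e-08, 1.009e-07 and 5.681e-07). Galc, which removes galactose from galactosylceramide, the chief glycolipid of myelin, had its highest mean level on day 5. Its levels were 14.3 and 11.5 uncrushed, 36.3 and 35.8 on day 3, 60.8 and 55.9 on day 5, and 37.8 and 38.1 on day 7. The rise was 1.51 ± 0.12, 2.18 ± 0.12 and 1.58 ± 0.12 (edgeR, adjusted p = 4.696e-06, 6.592e-07 and 6.309e-06).

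Glb1, Gaa and Gusb, which break down galactosides, glycogen and glucuronides, rose on all 3 days in Schwann cells. Glb1, the acid beta-galactosidase, had levels of 4.82 and 4.49 uncrushed and of 10.6 to 13.6 in the 6 crushed libraries. Gaa went from 3.31 and 3.73 to between 7.86 and 12.2, and Gusb from 7.15 and 7.90 to between 13.5 and 15.6. For each of the 3, no crushed library overlapped with the uncrushed ones. Asah1, acid ceramidase, was the most abundant of these 12 enzymes by mean level, at 102 and 126 in uncrushed Schwann cells and 139 to 169 after crush. Its log2 fold changes of 0.55 ± 0.13, 0.51 ± 0.13 and 0.44 ± 0.13 were called (edgeR, adjusted p = 0.005856, 0.008784 and 0.02047) but lost the call in at least 1 alternative on every day. Smpd1, acid sphingomyelinase, was similar, at 27.2 and 28.8 uncrushed and 31.7 to 37.2 after crush. Hexa, a subunit of beta-hexosaminidase, and Gla, alpha-galactosidase A, were called higher on day 3, and for both the crushed libraries overlapped with the uncrushed ones. Neu1, a sialidase, was not called in Schwann cells on any day. Arsa, which removes the sulfate from sulfatide, was called lower on day 5 with a log2 fold change of -0.28, at levels of 9.04 and 8.50 against 11.02 and 10.5.

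Sgsh, the sulfamidase of heparan sulfate breakdown, had few counts in every library. Its expected counts were 33 and 18 uncrushed, 4 and 3 on day 3, 11 and 10 on day 5, and 13 and 10 on day 7. In whole nerve they were 14 and 7 uncrushed and 23 to 57 after crush, so that all crushed libraries lay below the uncrushed ones in Schwann cells and above them in whole nerve. The log2 fold change on day 3 was -3.39 ± 0.61 in Schwann cells (edgeR, adjusted p = 0.001178) and 1.22 in whole nerve. On day 5 it was -1.67 ± 0.53 in Schwann cells (edgeR, adjusted p = 0.02218), a call that was lost in at least 1 alternative. At such counts a fold rests on few fragments.

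Both soluble cofactors rose. Psap is the precursor of the saposins, which present sphingolipids to hydrolases such as Galc. Its levels in Schwann cells were 117 and 109.8 uncrushed, 449.9 and 493 on day 3, 541 and 400.0 on day 5, and 311 and 317 on day 7. It was the most abundant member on day 3 and day 5 there, and rose by 2.08 ± 0.14 on day 3, 2.07 ± 0.14 on day 5 and 1.49 ± 0.14 on day 7 on the log2 scale (edgeR, adjusted p = 2.165e-06, 2.704e-06 and 2.876e-05). Npc2 binds cholesterol in the lumen and hands it to Npc1. It went from 55.7 and 52.5 to 123.4 and 123.5 on day 3, and lay at 68.7 and 64.9 on day 7, above both uncrushed libraries.

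**Figure D3:**
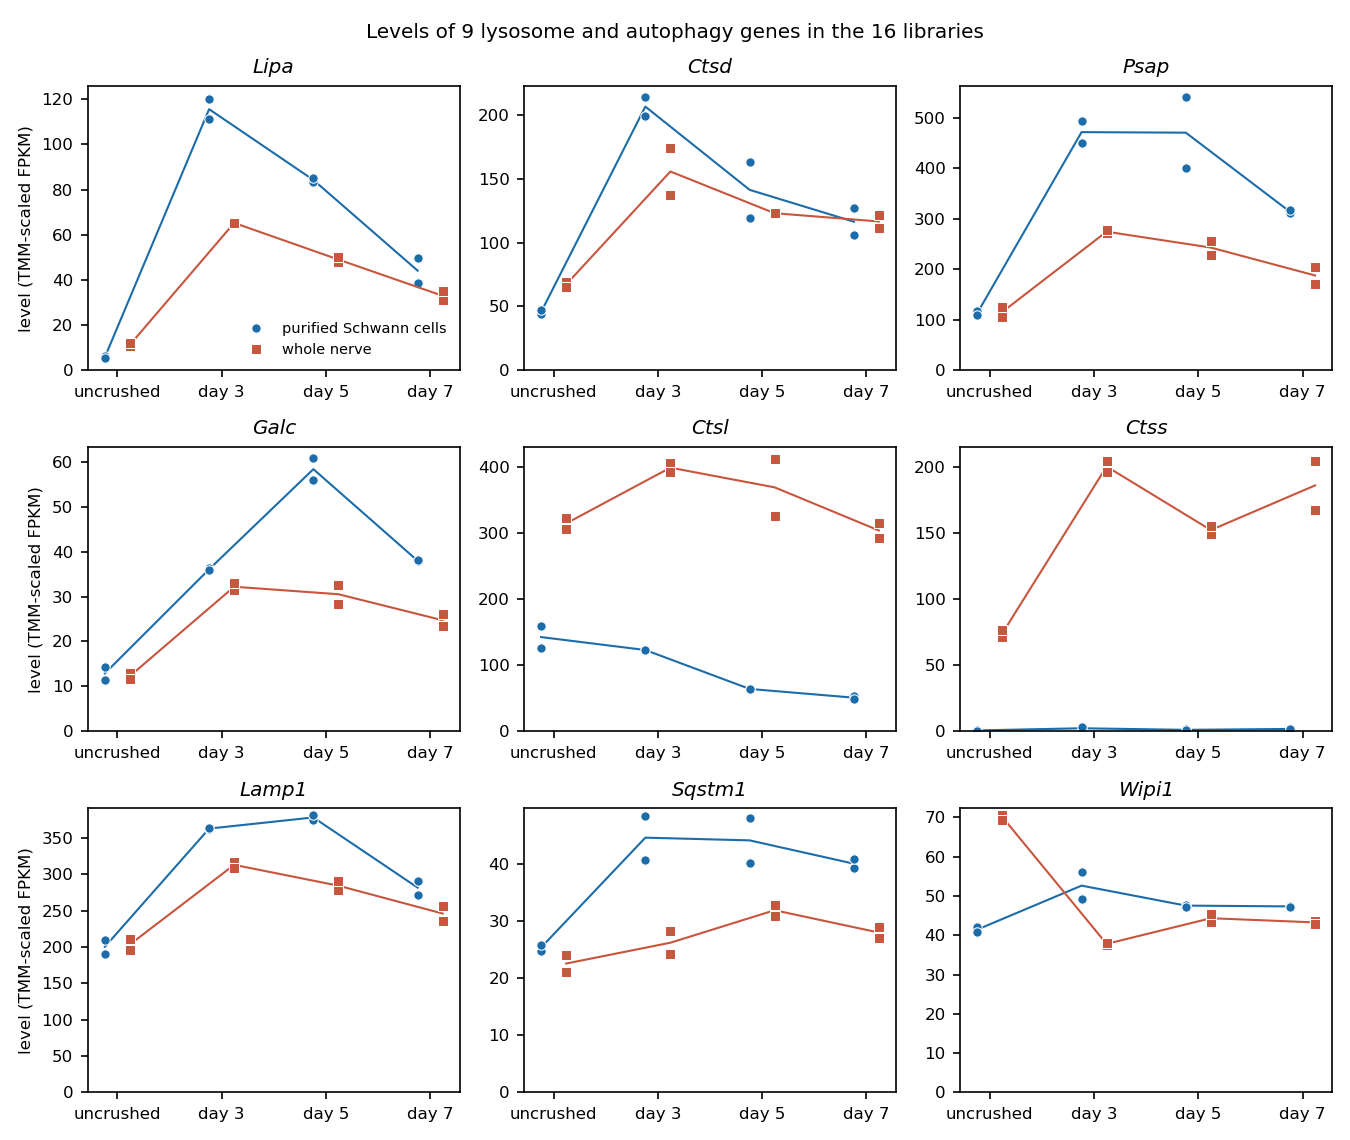
Level (TMM-scaled FPKM) of 9 members in each of the 16 libraries by time after crush, for Schwann cells and whole nerve, with 1 point per library and a line through the mean of the 2. Lipa in Schwann cells went from 6.22 and 5.49 to 111 and 120.1 on day 3, Ctsl fell to 52.8 and 49.1 on day 7, Ctss lay under 3.6 in Schwann cells throughout, and Wipi1 fell only in whole nerve.

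Of the 6 membrane proteins, only Lamp1 was called higher in Schwann cells on all 3 days in each of the 10 alternatives. Lamp1 and Lamp2 are the glycoproteins that line the lysosome, and Lamp2 also takes part in the uptake of cytosolic proteins. Lamp1 had levels of 210.0 and 190.2 uncrushed, 362 and 363 on day 3, 375 and 381 on day 5, and 291 and 272 on day 7. Its rise was 0.89 ± 0.09, 0.93 ± 0.09 and 0.51 ± 0.09 on the log2 scale (edgeR, adjusted p = 3.46e-05, 2.744e-05 and 0.001556). Lamp2, the most abundant member of the class over the 16 libraries, moved from 285 and 267 to 369.6 and 391 on day 3, a log2 fold change of 0.49 ± 0.09 (edgeR, adjusted p = 0.001397). On days 5 and 7 its log2 fold changes were 0.25 ± 0.09 and 0.19 ± 0.09 (edgeR, adjusted p = 0.0424 and 0.1179), and the day 5 call was lost in at least 1 alternative. Npc1, which exports cholesterol from the lysosome, was called only on day 3, at 22.7 and 25.3 against 19.7 and 20.3 uncrushed. Scarb2, the receptor that carries glucocerebrosidase to the lysosome, was not called on day 3 and was called lower on days 5 and 7, with levels of 37.1 and 31.2 uncrushed and 25.0 and 24.3 on day 7. Its log2 fold changes were -0.07 ± 0.12, -0.33 ± 0.12 and -0.46 ± 0.12 (edgeR, adjusted p = 0.6466, 0.04607 and 0.01312). Cln3, the protein lost in juvenile Batten disease, was called on day 7 (0.63 ± 0.19, edgeR, adjusted p = 0.0213), and the calcium channel Mcoln1 on no day. The calls of Scarb2 on days 5 and 7 and of Cln3 on day 7 were each lost in at least 1 alternative. On day 5, 1 membrane protein was higher without replicate 2 of uncrushed Schwann cells or without replicate 1 of day 5. Without replicate 1 of uncrushed Schwann cells, or without either library of day 7, 0 membrane proteins were lower on day 7, and without any 1 of the 4 libraries compared 1 was higher.

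Among the autophagy genes that bind cargo or the growing membrane, Sqstm1 and Map1lc3b rose on all 3 days in Schwann cells, Map1lc3a was called on none and Gabarapl1 fell on day 7. Sqstm1 is the adaptor p62, which tethers ubiquitinated cargo to LC3. It had levels of 24.9 and 25.9 in uncrushed Schwann cells, 40.9 and 48.5 on day 3, 40.3 and 48.1 on day 5, and 39.4 and 40.9 on day 7. Its rise was 0.76 ± 0.12, 0.83 ± 0.12 and 0.63 ± 0.12 on the log2 scale (edgeR, adjusted p = 0.0005202, 0.0002976 and 0.002147). Map1lc3b encodes LC3B, which is coupled to lipid in the autophagosome membrane. Its levels were 47.6 and 45.0 uncrushed and 72.4 to 79.5 in the 6 crushed libraries, with log2 fold changes of 0.77 ± 0.10, 0.71 ± 0.10 and 0.77 ± 0.10 (edgeR, adjusted p = 0.0001085, 0.0002009 and 0.0001669). RefSeq lists processed copies of both genes under related names, so that reads may be shared and both values are uncertain to that extent. Neither gene overlapped between crushed and uncrushed Schwann cells.

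Map1lc3a, which encodes the relative LC3A, had levels of 11.8 and 22.0 in the uncrushed libraries, wider than the range of 11.6 to 15.4 after crush. It was not called on any day (adjusted p = 0.69, 0.2098 and 0.299, edgeR). Without replicate 1 of uncrushed Schwann cells, its lower library, Map1lc3a was called lower on all 3 days, at log2 values of -0.51, -0.79 and -0.73 (adjusted p = 0.0496, 0.007801 and 0.01391). Gabarapl1, of the GABARAP branch of the same family, had levels of 70.1 and 69.4 uncrushed, 58.9 and 62.9 on day 3, 60.0 and 63.1 on day 5, and 52.8 and 45.6 on day 7. All crushed libraries lay below the uncrushed ones, and the change was called on day 7 (-0.49 ± 0.10, edgeR, adjusted p = 0.00359) and not on days 3 and 5 (-0.17 ± 0.10 on each, adjusted p = 0.1922 and 0.1899).

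Among the genes that build the autophagosome, Atg16l1 fell. Atg16l1 places the Atg5 and Atg12 conjugate on the membrane where LC3 is coupled to lipid. Its levels were 4.68 and 4.98 in uncrushed Schwann cells and 2.41 to 3.06 in the 6 crushed libraries. The log2 fold changes were -0.66 ± 0.17, -0.81 ± 0.17 and -0.72 ± 0.17 (edgeR, adjusted p = 0.008184, 0.002787 and 0.006753). Atg5, by contrast, was called higher on days 3 and 5, at 10.2 and 10.5 uncrushed and 13.0 to 18.2 on those days, and lost both calls in at least 1 alternative. Atg12 and Atg7, the enzyme that activates Atg12 and LC3, were not called in Schwann cells on any day. Wipi1, which binds the lipid PI3P on the growing membrane, was called higher on day 3 (0.37 ± 0.10, edgeR, adjusted p = 0.01012), Becn1, a subunit of the kinase complex that makes PI3P, on day 5, and Ulk1, the kinase that starts autophagy, on day 7. Each of these 3 calls was lost in at least 1 alternative. Without replicate 1 of day 3, Wipi1 lost its call (0.25, adjusted p = 0.1461) and 2 autophagy genes were higher on day 3, and without replicate 2 of day 5, 2 were higher on day 5.

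Tfeb, the transcription factor of many lysosomal genes, was low in all groups and was not called in any comparison of a day with uncrushed nerve. Its levels in Schwann cells were 1.62 and 1.75 uncrushed, 1.08 and 1.17 on day 3, and between 0.579 and 1.36 on days 5 and 7. All crushed libraries lay below both uncrushed ones, with log2 fold changes of -0.53 ± 0.42, -0.84 ± 0.43 and -0.88 ± 0.44 (edgeR, adjusted p = 0.3196, 0.1268 and 0.1286). In whole nerve its levels were 1.57 and 2.17 uncrushed and 1.11 to 1.77 after crush, with log2 fold changes of -0.09 ± 0.26, -0.72 ± 0.27 and -0.60 ± 0.28 (edgeR, adjusted p = 0.8015, 0.06083 and 0.1303). It passed the threshold where 1 library was left out, in Schwann cells without replicate 2 of day 5 (adjusted p = 0.04693) or of day 7 (0.04927), each for its own day, and in whole nerve on day 5 without replicate 1 of the uncrushed group (0.04618). RNA level is no measure of where the Tfeb protein is in the cell.

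The other genes of the pathway, 103 in 5 lists, were counted in the same fits. In Schwann cells on day 3, 45 of the 101 tested were higher and 18 lower, beside 26.9% and 25.7% of all genes tested, and in whole nerve 36 of 102 were higher and 16 lower, beside 23.1% and 22.5%. Of 26 other hydrolases, 15 were higher and 3 lower in Schwann cells, and 17 and 0 in whole nerve. Most of the other lysosomal membrane proteins tested were also called higher in Schwann cells, while Ctns, Mfsd8, Abca2 and Tpcn2 were called lower. Of 16 subunits of the proton pump that acidifies the lysosome, 10 were higher and 2 lower in Schwann cells, and 5 and 0 in whole nerve. The 33 other autophagy genes were 5 higher and 8 lower in Schwann cells and 2 higher and 12 lower in whole nerve. Mitf, a relative of Tfeb, fell by 0.73 ± 0.11 in Schwann cells and by 0.84 ± 0.12 in whole nerve (edgeR, adjusted p = 0.0003658 and 0.0002654). It was the only gene of its list called lower in Schwann cells, where Rragc, Rragd, Fnip1, Fnip2 and Lamtor1 of that list were called higher. Gpnmb, a lysosomal glycoprotein, had the highest fold change of the 103 in Schwann cells on day 3, 3.98 ± 0.15 (edgeR, adjusted p = 6.374e-08), and rose by 3.33 ± 0.11 in whole nerve. Ctns, which exports cystine, fell by 2.00 ± 0.12 in Schwann cells (edgeR, adjusted p = 1.079e-06). All genes named from these lists were named after their values were seen.

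In whole nerve, 18 of the 40 members were called higher and 6 lower on day 3, beside 23.1% and 22.5% of the 15831 genes tested. On day 5, 16 were higher and 3 lower, beside 18.9% and 19.5%, and on day 7, 16 were higher and 5 lower, beside 15.4% and 15.9%. The hydrolases made up 13, 11 and 12 of the higher members, and their median log2 fold change was 0.49 on day 3, beside 0.15 for membrane proteins and 0.01 for autophagy genes. Of the higher members, 14 on day 3, 9 on day 5 and 8 on day 7 stayed called in all 10 alternatives, among them Ctsb, Ctsd, Ctss, Ctsz, Lipa, Galc and Psap on each day, and here too the days share their uncrushed libraries. Without replicate 1 of uncrushed whole nerve, 10 members were higher on day 5 and 8 on day 7, and 7 hydrolases on each of those days. Autophagy genes called higher numbered 1, 3 and 3, and without that same library 0 were higher on day 7, while on day 5 0 were higher without replicate 1 of day 5 whole nerve, and 1 without its replicate 2 or without replicate 1 of uncrushed whole nerve. Members lower on day 5 numbered 1 without replicate 2 of uncrushed or of day 5 whole nerve, and on day 7 2 without either uncrushed library and 3 without replicate 2 of day 7.

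Whole nerve had more of several cathepsins than Schwann cells did. Ctsb had levels of 281 and 269 uncrushed, 839 and 802 on day 3, 648 and 629 on day 5, and 597 and 532 on day 7, and rose by 1.51 ± 0.09, 1.10 ± 0.09 and 0.93 ± 0.09 on the log2 scale (edgeR, adjusted p = 3.49e-07, 4.499e-06 and 1.94e-05). Ctss rose by 1.37 ± 0.11, 0.93 ± 0.11 and 1.23 ± 0.11 on the 3 days (edgeR, adjusted p = 3.85e-06, 8.335e-05 and 1.522e-05). Ctsz rose from 8.50 and 11.3 to 44.6 and 46.7 on day 3 (2.16 ± 0.15, edgeR, adjusted p = 1.64e-06). The macrophage markers in the same libraries rose from 559 and 591 to 2747 and 2649 on day 3, and their part in these rises was not tested. Ctsk fell by 0.70 ± 0.11 on day 3 (edgeR, adjusted p = 0.0004335), from 35.8 and 35.4 to 23.2 and 22.6, and by 0.37 ± 0.11 on each of days 5 and 7 (edgeR, adjusted p = 0.02062 and 0.02581), and both later calls were lost in at least 1 alternative. Lipa had levels of 10.6 and 12.0 uncrushed, 65.2 and 65.4 on day 3, 47.9 and 50.2 on day 5, and 31.0 and 35.1 on day 7, with log2 fold changes of 2.46 ± 0.10, 2.02 ± 0.10 and 1.45 ± 0.10 (edgeR, adjusted p = 4.313e-08, 2.163e-07 and 3.349e-06). Psap rose by 1.18 ± 0.12, 0.97 ± 0.12 and 0.60 ± 0.12 (edgeR, adjusted p = 1.886e-05, 0.0001046 and 0.002827), and Galc by 1.22 ± 0.11 on day 5 (edgeR, adjusted p = 1.724e-05). Lamp1 rose by 0.55 ± 0.09 on day 3 and 0.38 ± 0.09 on day 5 (edgeR, adjusted p = 0.0004529 and 0.005937) and was not called on day 7 (0.18 ± 0.09, adjusted p = 0.1463). Lamp2 was called on no day (0.09 ± 0.09, 0.08 ± 0.09 and -0.05 ± 0.09, edgeR, adjusted p = 0.4549, 0.5552 and 0.7492).

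Of the members that fell in whole nerve, Wipi1 had the lowest adjusted p on each day. Its levels were 70.7 and 69.4 uncrushed, 37.5 and 38.0 on day 3, 43.3 and 45.4 on day 5, and 43.6 and 42.9 on day 7. All crushed libraries lay below the uncrushed ones, with log2 fold changes of -0.96 ± 0.08, -0.76 ± 0.08 and -0.79 ± 0.08 (edgeR, adjusted p = 6.343e-06, 4.414e-05 and 4.772e-05). Becn1 and Gabarapl1 were also called lower on day 3, by -0.51 ± 0.12 and -0.60 ± 0.12 on the log2 scale (edgeR, adjusted p = 0.004678 and 0.002284). Becn1 was lower on day 7 too (-0.45 ± 0.12, edgeR, adjusted p = 0.01485), where the call was lost in at least 1 alternative, and Gabarapl1 was not called on day 5 or 7 (-0.32 ± 0.12 and -0.12 ± 0.12, edgeR, adjusted p = 0.06029 and 0.4839). Smpd1 was called lower on all 3 days, at 45.5 and 51.0 uncrushed and 34.0 to 42.1 after crush, with log2 fold changes of -0.39 ± 0.11, -0.41 ± 0.11 and -0.43 ± 0.11 (edgeR, adjusted p = 0.01724, 0.01504 and 0.01449), and lost each of these calls in at least 1 alternative. Asah1 changed by -0.25 ± 0.09, 0.08 ± 0.09 and -0.33 ± 0.09 (edgeR, adjusted p = 0.04486, 0.5406 and 0.01842), and its calls on days 3 and 7 were each lost in at least 1 alternative. Map1lc3b, at 68.0 and 76.6 uncrushed and 75.2 to 89.5 after crush, was not called on any day in whole nerve (edgeR, adjusted p = 0.1551, 0.3763 and 0.5141), and Sqstm1 only on day 5 (0.33 ± 0.11, edgeR, adjusted p = 0.03102), with 0.01 ± 0.11 on day 3 and 0.23 ± 0.11 on day 7 (adjusted p = 0.9316 and 0.1359). Map1lc3a was called on no day (-0.36 ± 0.19, -0.48 ± 0.19 and -0.39 ± 0.19, edgeR, adjusted p = 0.1383, 0.06953 and 0.1485).

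Set side by side on day 3, 16 of the 40 members were called higher in both tissues and 0 lower in both, beside 14.2% and 12.8% of the 14030 genes tested in both. The 16 were Ctsa, Ctsb, Ctsd, Ctss, Ctsz, Tpp1, Lipa, Hexa, Gla, Gusb, Gaa, Galc, Psap, Npc2, Lamp1 and Atg5, of which 12 are hydrolases. Asah1, Smpd1 and Wipi1 were called higher in Schwann cells and lower in whole nerve, and Sgsh the reverse, beside 2.02% and 1.68% of those genes. The calls of Asah1 and Smpd1 in either tissue, of Wipi1 in Schwann cells and of Sgsh in whole nerve were each lost in at least 1 alternative. The difference between the tissues, tested below, was called on day 3 for all 4, and for Smpd1 that call was lost in at least 1 alternative. Whole nerve contains Schwann cells, so that the tissues are not separate sources, although their libraries are.

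**Figure D4:**
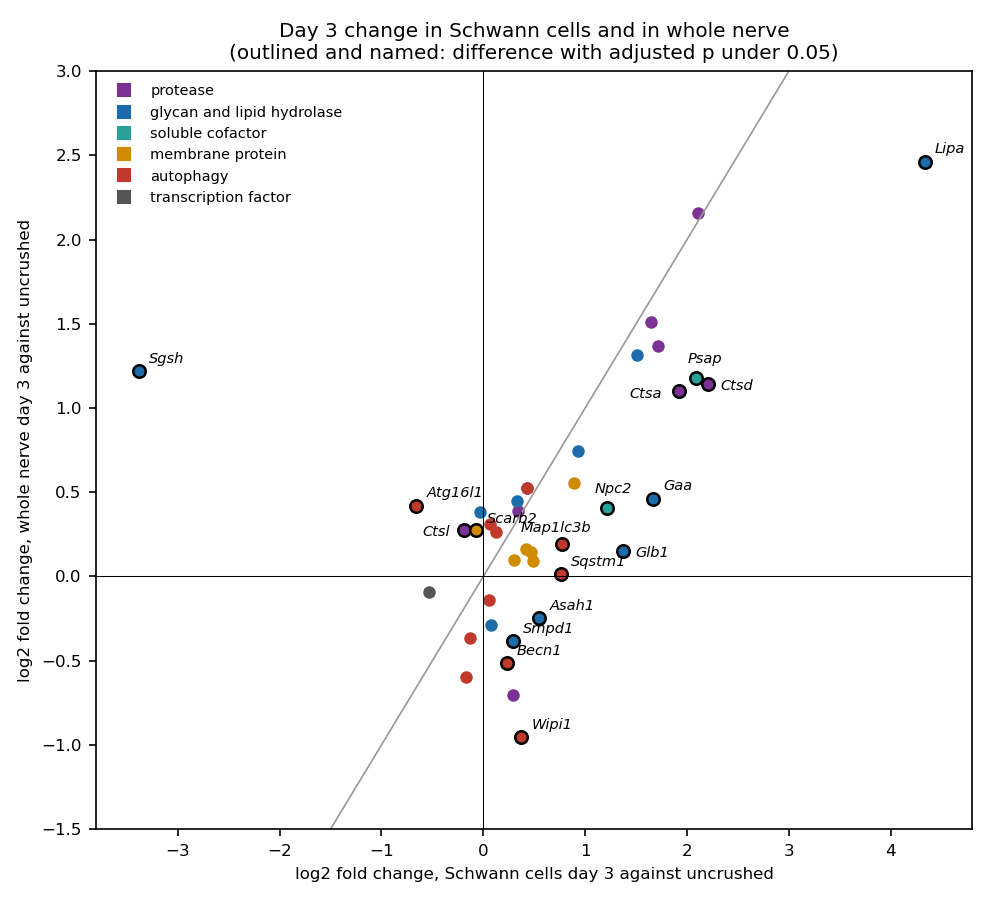
Log2 fold change on day 3 in whole nerve (vertical axis) against that in Schwann cells (horizontal axis) for the 40 members, coloured by class, with the diagonal drawn. Lipa lies at 4.33 and 2.46, Sgsh at -3.39 and 1.22, and Wipi1 at 0.37 and -0.96.

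Whether crush acted to a different extent in the tissues was tested as the log2 fold change in Schwann cells minus that in whole nerve, in a fit of all 16 libraries. On day 3, 13 members had a higher and 4 a lower change in Schwann cells, beside 12.3% and 13.7% of the 16829 genes tested. On day 5 the counts were 12 and 4, beside 12.6% and 14.9%, and on day 7 they were 9 and 7, beside 11.6% and 14.4%. The higher members included 7, 7 and 6 of 20 hydrolases on the 3 days. Lipa rose more in Schwann cells by 1.77 ± 0.18, 1.72 ± 0.18 and 1.36 ± 0.18 on the log2 scale (edgeR, adjusted p = 4.879e-06, 6.855e-06 and 6.647e-05). Glb1 did so by 1.11 ± 0.17, 1.29 ± 0.17 and 0.84 ± 0.17 (edgeR, adjusted p = 0.0002479, 7.306e-05 and 0.002577). In the separate fits of the tissues, its log2 fold change on day 3 was 1.37 in Schwann cells, where it was called, and 0.15 in whole nerve, where it was not. The differences of Lipa, Glb1, Gaa and Wipi1 stayed called in all 12 alternatives on each day. Ctsl had a lower change in Schwann cells by -1.39 ± 0.17 on day 5 and -1.44 ± 0.17 on day 7 (edgeR, adjusted p = 3.133e-05 and 2.621e-05). Atg16l1 differed by -1.18 ± 0.27, -1.16 ± 0.27 and -1.46 ± 0.27 (edgeR, adjusted p = 0.004589, 0.005528 and 0.001193). For Map1lc3b the differences of 0.48 ± 0.14, 0.46 ± 0.14 and 0.55 ± 0.14 were called (edgeR, adjusted p = 0.02144, 0.02448 and 0.0101) and lost the call in at least 1 alternative on each day. Without replicate 1 of uncrushed Schwann cells, replicate 1 of day 7 Schwann cells or replicate 1 of day 7 whole nerve, 4 members were lower on day 7, and 2 were lower on day 3 without any 1 of replicate 2 of uncrushed whole nerve and the 4 day 3 libraries.

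Other members with low adjusted p for the difference were Wipi1, by 1.23 ± 0.12, 0.85 ± 0.12 and 0.88 ± 0.12 on the 3 days (edgeR, adjusted p = 4.362e-06, 0.0001174 and 9.926e-05), Npc2, by 0.70 ± 0.12 on day 3 and 0.91 ± 0.12 on day 5 (edgeR, adjusted p = 0.0005619 and 7.117e-05), and, with a lower change in Schwann cells, Sgsh, by -4.72 ± 0.69 on day 3 and -3.07 ± 0.63 on day 5 (edgeR, adjusted p = 0.0001653 and 0.002359), and Scarb2, by -0.45 ± 0.15, -0.62 ± 0.15 and -0.70 ± 0.16 on the 3 days (edgeR, adjusted p = 0.04226, 0.008002 and 0.003995). The calls of Scarb2 on day 3 and of Sgsh on day 7 were lost in at least 1 alternative. Ctsa, Ctsd, Gaa, Asah1, Psap and Becn1 also had a higher change in Schwann cells on day 3, and each kept that call in all 12 alternatives. Ctsl differed by -0.57 ± 0.17 on day 3 (edgeR, adjusted p = 0.02171), a call lost in at least 1 alternative. Of the cargo and membrane genes, Sqstm1 had a higher change in Schwann cells on day 3 (0.64 ± 0.16, edgeR, adjusted p = 0.008208), with 0.38 ± 0.16 and 0.28 ± 0.16 on the later days (adjusted p = 0.09317 and 0.2175). Gabarapl1 had a lower one on day 7 (-0.48 ± 0.16, edgeR, adjusted p = 0.04043), lost in at least 1 alternative, and 0.33 ± 0.16 and 0.03 ± 0.16 on days 3 and 5 (adjusted p = 0.1541 and 0.9431). Lamp1 differed on day 5 (0.43 ± 0.12, edgeR, adjusted p = 0.0185), also lost in at least 1 alternative, with 0.23 ± 0.12 and 0.21 ± 0.12 on days 3 and 7 (adjusted p = 0.1985 and 0.2299). Map1lc3a was called on no day (0.13 ± 0.34, -0.05 ± 0.35 and -0.07 ± 0.35, edgeR, adjusted p = 0.8301, 0.9558 and 0.9317). Neither was Tfeb (-0.54 ± 0.51, -0.24 ± 0.52 and -0.40 ± 0.53, edgeR, adjusted p = 0.4869, 0.7859 and 0.6306) nor Ctss (0.32 ± 0.58, -0.38 ± 0.67 and -0.03 ± 0.85, edgeR, adjusted p = 0.743, 0.733 and 0.9999).

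Levels in the purified cells and in whole nerve were compared at each time. In uncrushed nerve, 8 members were higher and 15 lower in Schwann cells, beside 29.1% and 35.3% of all genes tested, and 11 of the 15 were hydrolases. The counts were 11 and 8 on day 3 (24.5% and 32.8% of all genes), 8 and 8 on day 5 (23.2% and 28.4%), and 10 and 11 on day 7 (22.4% and 28.7%). Without replicate 2 of day 7 Schwann cells 5 members were higher on day 7, and without replicate 1 of day 7 whole nerve 6 were. Ctss and Ctsk were 96.7 and 69.0 times lower in uncrushed Schwann cells (log2 differences of -6.59 ± 0.37 and -6.11 ± 0.32, edgeR, adjusted p = 2.432e-09 and 1.309e-09). Both genes were barely present in Schwann cells, so that the size of these folds is uncertain. Lipa was lower in uncrushed Schwann cells than in whole nerve (-0.95 ± 0.13, edgeR, adjusted p = 2.294e-05) and higher on day 3 (0.82 ± 0.12, edgeR, adjusted p = 2.791e-05). Wipi1 turned in the same way, from -0.76 ± 0.09 to 0.47 ± 0.08 (edgeR, adjusted p = 2.692e-06 and 0.0002712). Psap was level in uncrushed tissue (-0.03 ± 0.14) and higher in Schwann cells on day 3 (0.77 ± 0.14, edgeR, adjusted p = 0.0002284). Npc1 and Atg16l1 were higher in uncrushed Schwann cells, Npc1 by 0.92 ± 0.13 (edgeR, adjusted p = 1.971e-05) at levels of 19.7 and 20.3 against 9.94 and 11.2.

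Between day 3 and day 7 the members that changed mostly came down. In Schwann cells 9 were lower on day 7 than on day 3 and 1 was higher, beside 10.7% and 10.2% of all genes tested, and in whole nerve 10 were lower and 2 higher, beside 11.4% and 9.85%. In Schwann cells Ctsa, Ctsb, Ctsd, Ctsl, Lipa and Npc2 stayed called lower in all 10 alternatives, and Psap, Lamp1 and Lamp2 did not. Lipa fell by 1.40 ± 0.13 in Schwann cells and by 1.01 ± 0.10 in whole nerve on the log2 scale (edgeR, adjusted p = 0.0001022 and 6.887e-05), and Ctsl by 1.28 ± 0.12 in Schwann cells (edgeR, adjusted p = 0.0001121). Sgsh was the member called higher, and that call was lost without any 1 of the 4 libraries compared. In whole nerve the higher members were Gabarapl1 and Ulk1, of which 0 stayed called without replicate 2 of day 3, and 5 and 6 members were lower without replicate 1 and replicate 2 of day 3. Sqstm1 and Map1lc3b were not among the called members in Schwann cells, with levels of 39.4 and 40.9 and of 77.8 and 78.5 on day 7. Counting each member by the group in which its mean level in Schwann cells was highest, 7 were highest in uncrushed cells, 16 on day 3, 10 on day 5 and 7 on day 7. Day 3 was the highest group for 10 of the 20 hydrolases and for 2 of the 11 autophagy genes. The same count was not made over all genes, so these numbers have no background, and the difference between classes was not tested.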

How the data were processed

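The authors aligned reads to the rat genome Rnor_6.0 with STAR and estimated with RSEM the expected counts and FPKM of 31038 genes, deposited per library without a filter. cDNA was amplified before library synthesis. Expected counts were rounded, and edgeR 4.0.16 (R 4.3.3, limma 3.58.1) ran its quasi-likelihood test on them after TMM normalization and filterByExpr, with Benjamini-Hochberg adjustment over all genes tested at 0.05. The 8 libraries of each tissue were fitted together, and all 16 for comparisons between tissues. The standard error was taken as the absolute fold change on the log2 scale over the root of F. The test was checked on simulated counts with 200 changed genes. Levels are the deposited FPKM divided by the TMM factor of the 16-library fit, a scale chosen after the FPKM totals were seen. Nothing in the labels says that the 2 replicates of a group came from separate preparations, so that p-values measure only the spread between these samples. Each sample was assigned to its group from its labels. Columns of per-sample values left unused numbered 0. The authors' module table was not used here.

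The members and lists were chosen with earlier results of these data known. All 40 members are named. Fold changes with errors are given for the member with the highest level of each class, the 3 members of lowest adjusted p each way for each day and for the difference between tissues, and Sqstm1, Map1lc3a, Map1lc3b, Gabarapl1, Tfeb, Ctss and Lamp1. Other values were added after they were seen. Alternatives were DESeq2 1.42.0, upper quartile normalization, no filter, all 16 libraries, only the 2 groups compared, a replicate block, each library left out, and, apart from these, a required fold of 1.5. Promoters were matched by symbol to RefSeq windows.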

Additional observations from a re-analysis of the deposited data

Results flagged for a closer look

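The members given here are those that the rule for named genes gives, and not all that were called, which numbered 13 with a higher and 4 with a lower change in Schwann cells on day 3, 12 and 4 on day 5, and 9 and 7 on day 7. For these members the change after crush differed between Schwann cells and whole nerve in a test of the difference itself (edgeR quasi-likelihood, adjusted over all genes tested), and the values are log2 fold changes in Schwann cells minus those in whole nerve. Lipa, the acid lipase, differed by 1.77, 1.72 and 1.36 at days 3, 5 and 7, and Glb1, the beta-galactosidase, by 1.11, 1.29 and 0.84. Wipi1, which binds PI3P, differed by 1.23 at day 3, 0.85 at day 5 and 0.88 at day 7. Npc2, the soluble cholesterol carrier, differed by 0.70 at day 3 and 0.91 at day 5, and Lamp1 by 0.43 at day 5. Map1lc3b differed by 0.48, 0.46 and 0.55, and Sqstm1 by 0.64 at day 3. On the lower side, Sgsh differed by -4.72 at day 3 and -3.07 at day 5, on counts of 3 to 57 per library. Ctsl differed by -0.57, -1.39 and -1.44, and Atg16l1 by -1.18, -1.16 and -1.46. Scarb2 differed by -0.45, -0.62 and -0.70, and Gabarapl1 by -0.48 at day 7. The differences of Map1lc3b on each day, of Lamp1 at day 5, of Ctsl and Scarb2 at day 3 and of Gabarapl1 at day 7 were lost in at least 1 alternative.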

How the results depend on the processing

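Of 159 values named for single members, 112 were called, and 0 of these changed sign in any alternative run. With DESeq2, 149 of the 159 kept their direction and side of the threshold, as did 149 with upper quartile normalization, 154 without a filter, 152 with the replicate block, 109 where a fold of at least 1.5 was required and 672 of 792 values with a library left out. The cause of the changes below was not tested, except that a required fold, fewer libraries or another set of libraries are changes of the test itself. Sgsh had 3 to 57 expected counts per library. Upper quartile normalization shifted the median of all genes by 0.137 on day 5 and 0.103 on day 7 between the tissues. In whole nerve, fitting all 16 libraries shifted it by 0.069, 0.097 and 0.093 on the 3 days. Medians of log2 fold change, for all members and for hydrolases, membrane proteins and autophagy genes, numbered 24. Of these, 4 moved by at least the spread between replicates with upper quartile normalization and 6 with all 16 libraries.

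The shares of all genes given above are those of the edgeR test without a required fold. None was counted for the alternatives, so their counts here and below cannot be set beside those shares. With a required fold of at least 1.5, members higher and lower in Schwann cells numbered 13 and 1 on day 3, 13 and 1 on day 5 and 8 and 1 on day 7. In whole nerve they numbered 8 and 1, 6 and 1, and 5 and 1. Between day 7 and day 3 they were 0 and 5 in Schwann cells and 0 and 1 in whole nerve. Schwann cells were higher than whole nerve for 2 members uncrushed, 3 on day 3, 3 on day 5 and 1 on day 7, and lower for 5 on day 5 and 6 on day 7. The change after crush was higher and lower in Schwann cells for 4 and 2 members on day 3, 4 and 2 on day 5, and 2 and 3 on day 7.

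Members lower in Schwann cells on day 5 numbered 3 without a filter, 3 with DESeq2 and 3 with only the 2 groups compared. In whole nerve on day 7, 9 were higher and 3 lower with only the 2 groups compared, and 3 were lower with all 16 libraries. Members higher on day 7 than on day 3 in Schwann cells numbered 2 with upper quartile normalization, 2 with all 16 libraries and 0 with DESeq2. Lamp2 in whole nerve on day 7 turned to 0.0040 with upper quartile normalization and 0.048 with all 16 libraries. With upper quartile normalization, Map1lc3a turned to 0.020 for the difference of the change on day 5 and Psap to 0.042 for uncrushed Schwann cells against whole nerve.

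Taken over all genes kept by the filter, same-numbered libraries did not deviate together. The correlations of their deviations from the group means were -0.054 to 0.0753 over 28 pairs of groups. Such a correlation cannot show a batch that touches only some genes, and whether libraries shared a preparation was not tested. With the replicate block, 5 members were lower in whole nerve on day 5 and 0 were higher on day 7 than on day 3 in Schwann cells.

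With a library left out, members lower in Schwann cells ranged from 2 to 4 on day 3 (4 without replicate 1 of the uncrushed group) and from 3 to 4 on day 5. In whole nerve, members higher on day 5 ranged from 10 to 14 and on day 7 from 8 to 14, both lowest without replicate 1 of the uncrushed group, and members lower ranged from 1 to 3 and from 2 to 4. On day 7 against day 3, 0 were higher in Schwann cells, and in whole nerve 0 to 2 were higher and 5 to 9 lower, with 5 without replicate 1 of day 3. Members with more RNA in purified cells than in whole nerve on day 7 ranged from 5 (without replicate 2 of day 7 Schwann cells) to 10. Members with a lower change in Schwann cells ranged from 2 to 3 on day 3 and from 4 to 6 on day 7.

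Among single members that turned in sign with a library left out, Map1lc3a in Schwann cells ranged from -0.51 to 0.35 on day 3, -0.79 to 0.085 on day 5 and -0.73 to 0.15 on day 7, each time between leaving out replicate 1 and replicate 2 of the uncrushed group. Ctss in Schwann cells on day 5 ranged from -0.062 to 1.28. In whole nerve Tfeb on day 3 ranged from -0.31 to 0.15, Sqstm1 on day 3 from -0.070 to 0.11, and on day 7 Lamp2 from -0.13 to 0.067, Map1lc3b from -0.011 to 0.23 and Gabarapl1 from -0.27 to 0.039. For the difference of the change between tissues, Map1lc3a ranged from -0.25 to 0.64, -0.43 to 0.46 and -0.45 to 0.44 on the 3 days, Ctss from -0.83 to 0.95, -1.13 to 0.25 and -0.42 to 0.59, Tfeb on days 5 and 7 from -0.87 to 0.21 and -1.001 to 0.072, and Gabarapl1 on day 5 from -0.0045 to 0.063. Psap in uncrushed Schwann cells against whole nerve ranged from -0.15 to 0.097. None of these values was called with all libraries in.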
